A study of Mus musculus with 6 samples.

Results

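The SLC25 genes encode the mitochondrial carriers, the largest family of transporters in the inner mitochondrial membrane. All 47 rows of the deposited table of 55995 features whose gene name is Slc25a followed by a number were taken as members, and 33 of them, which averaged 1 TPM or more across the 6 libraries, were tested among 11938 such features. Levels are in TPM, transcript abundances that the authors scaled for transcript length and library size, so levels of different genes can be set side by side. RNA came from the gastrocnemius (a fast-fibre muscle of the calf) of NOD/SCID/IL2Rγ-null (NSG) mice, an immunodeficient strain that accepts human tumours. Every mouse of both groups carried a tumour under the skin of the left flank, grown from wild-type MDA-MB-231 cells, which derive from a human breast cancer. No tumour-free muscle was analysed here. In the radiotherapy group (3 libraries) the tumour received 1 dose of 10 Gy (X-rays of 6 MV, 6 Gy/min) when it measured about 800 mm3, and the muscle was taken from the opposite side 3 days later. The control group (3 libraries) was not irradiated, and no tumour size or day is given for it. The labels do not say whether the libraries of a group were separate mice. The p-values therefore reflect the spread between these libraries alone, which may be technical. The comparison addresses muscle that lay outside the beam.

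A carrier binds its substrate on one face of the inner membrane and releases it on the other, often in exchange for a second substrate, and so links the metabolism of the cytosol with that of the matrix. In muscle the phosphate carrier and the ADP/ATP carrier feed ATP synthase and export its product, and the malate-aspartate shuttle carriers move reducing equivalents inward. Other carriers bring in acylcarnitines for oxidation, iron for haem and iron-sulphur clusters, amino acids, nucleotides and cofactors such as NAD, coenzyme A and glutathione. The members were sorted into 10 classes by the substrate that textbook knowledge gives them, and those with no settled substrate formed a class of their own.

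No carrier passed the test between radiotherapy and control muscle, yet the members did not all keep to one pattern. Slc25a3, Slc25a36, Slc25a44, Slc25a46 and Slc25a51 lay below every control library in all 3 radiotherapy libraries, also under each of 3 other scalings of the libraries. Under those scalings taken singly, 9.95% to 16.5% of all tested features lay below in this way. The share of all tested features that did so under every scaling was not computed, so these members cannot be set against it. Slc25a4, the most abundant carrier, overlapped between the groups. By limma's test, 0 of 33 members passed as lower and 0 as higher at an adjusted p of 0.05 (Benjamini-Hochberg over all features), where 0.0168% of all tested features passed as lower and 0.0419% as higher. The smallest adjusted p of a member was 0.238. At an unadjusted p of 0.05, 9 members were lower and 0 higher, against 13.3% of all tested features lower and 1.18% higher. All 3 radiotherapy libraries lay below every control library for 10 of 33 members, which is 30.3% of them against 19.3% of all tested features, and above every control library for 0 members against 1.73% of features. A log2 difference below 0 was found for 26 of 33 members (78.8%), beside 78.5% of all tested features, so the members' share was near that of the table as a whole. Where 3 values are given for a group below, they are replicates 1, 2 and 3 in that order. The median log2 difference, radiotherapy minus control on the log2(TPM + 1) scale, was -0.36 for the members and -0.36 for all tested features.

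Replicate 3 of the radiotherapy group lay apart from its other replicates in the whole table, and less so in the carriers. In replicates 1 and 2, 18 and 23 of the 33 members (54.5% and 69.7%) lay below the control range, and 63.2% and 67.6% of all tested features did. Above it lay 2 members (6.06%) in each, beside 10.0% and 8.44% of all tested features. In replicate 3, 15 members (45.5%) lay below and 4 (12.1%) above it, while 30.9% of all tested features lay below and 31.5% above. Without replicate 3, limma's test called 10 members lower and 0 higher, beside 27.6% of all tested features lower and 1.98% higher. The 10 were Slc25a3, Slc25a5, Slc25a16, Slc25a20, Slc25a28, Slc25a36, Slc25a38, Slc25a44, Slc25a46 and Slc25a51. Both remaining radiotherapy libraries then lay below every control library for 17 members, beside 58.8% of all tested features. Any adjusted p given below without replicate 3 comes from that fit and is to be read beside its 27.6%. With any other single library left out, 0 members passed. The 6 muscle fibre markers (Acta1, Ckm, Mylpf, Myh4, Tnnt3 and Pvalb), all detected in every library, summed to 89258 to 94116 TPM in the control libraries and to 130150, 138700 and 71901 TPM in radiotherapy-group replicates 1, 2 and 3. The 6 neutrophil markers summed to 72.7 to 182 TPM in the controls against 10.7, 17.95 and 2926 TPM in those replicates, and the 5 macrophage markers to 38.2 to 122 TPM and to 32.6, 56.8 and 321 TPM. Of the macrophage markers, Lyz2 (190.34 TPM), Cd68 (120.92 TPM) and Csf1r (5.96 TPM) lay above the control range in replicate 3. Adgre1 (2.2 TPM) and Mrc1 (1.45 TPM) lay inside it. The 4 endothelial markers summed to 47.05 to 61.8 TPM in the controls against 34.3, 31.3 and 77.0 TPM. In replicate 3 Cdh5 alone of the 4 lay above the control range, at 37.95 TPM, with Pecam1 inside it and Kdr and Tek below, and Tek lay below every control library in all radiotherapy libraries. The 5 slow fibre markers summed to 559, 39.3 and 752 TPM in control replicates 1, 2 and 3 and to 565, 1031 and 130 TPM in the radiotherapy ones, so 1 library of each group was low. The part of these shifts in the carrier values was not tested. In whole muscle, fewer cells of a type and less RNA per cell cannot be told apart.

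**Figure D1:**
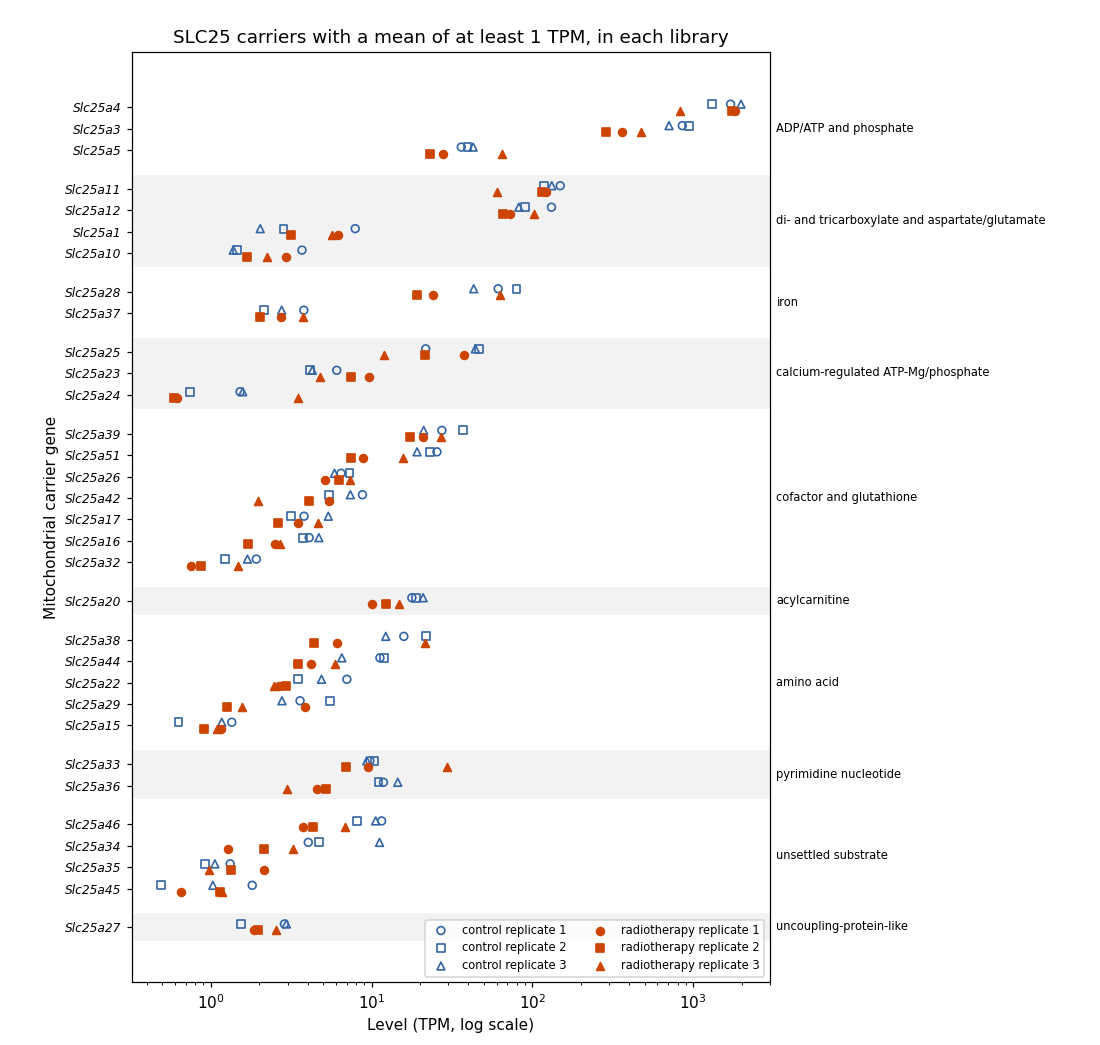
Level of 32 of the 33 tested carriers in every library, in TPM on a log axis, grouped by substrate class. Open blue symbols are control and filled orange symbols radiotherapy libraries, with the symbol shape giving the replicate number. Slc25a4 and Slc25a3 lie far to the right of all others, and the orange triangles (replicate 3) often lie apart from the other orange symbols.

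The 4 promoters printed here, which run from 250 bases before to 50 bases after the annotated start, belong to the 2 carriers that hold most of the family's transcripts and to the pair of pyrimidine nucleotide carriers, since each pair held a member whose groups did not overlap beside one whose groups did. The sequences are from RefSeq on GRCm38.p6, a newer build than mm9, which the submitters' processing notes name, and all 4 genes lie on the minus strand. They are printed 5′ to 3′ in the sense of the gene. Capitals mark matches, on either strand, to 5 motifs of factors known for mitochondrial or stimulus-driven genes: GCGCATGCG for NRF1, CCGGAAGT for ETS factors, TCAAGGTCA for oestrogen-related receptors, AAGATGGCG for YY1 and TGACGTCA for CREB.
Slc25a3, chr10:91123918-91124217: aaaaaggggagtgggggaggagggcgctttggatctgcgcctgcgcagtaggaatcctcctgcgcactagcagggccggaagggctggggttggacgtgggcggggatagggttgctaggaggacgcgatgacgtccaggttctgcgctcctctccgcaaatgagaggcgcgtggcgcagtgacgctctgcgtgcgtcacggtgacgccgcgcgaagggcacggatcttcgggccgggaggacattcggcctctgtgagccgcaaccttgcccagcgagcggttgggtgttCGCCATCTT
Slc25a4, chr8:46211013-46211312: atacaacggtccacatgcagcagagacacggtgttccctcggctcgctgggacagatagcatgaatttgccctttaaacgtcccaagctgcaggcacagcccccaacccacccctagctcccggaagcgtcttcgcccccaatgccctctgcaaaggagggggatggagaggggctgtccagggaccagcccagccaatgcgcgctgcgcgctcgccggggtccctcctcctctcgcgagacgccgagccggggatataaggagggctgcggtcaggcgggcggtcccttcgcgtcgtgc
Slc25a36, chr9:97110992-97111291: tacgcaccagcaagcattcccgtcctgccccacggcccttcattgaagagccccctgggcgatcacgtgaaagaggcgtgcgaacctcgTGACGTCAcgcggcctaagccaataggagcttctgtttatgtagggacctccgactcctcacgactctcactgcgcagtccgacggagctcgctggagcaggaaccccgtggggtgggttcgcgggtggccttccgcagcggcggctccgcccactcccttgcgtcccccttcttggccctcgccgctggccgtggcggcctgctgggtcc
Slc25a33, chr4:149774218-149774517: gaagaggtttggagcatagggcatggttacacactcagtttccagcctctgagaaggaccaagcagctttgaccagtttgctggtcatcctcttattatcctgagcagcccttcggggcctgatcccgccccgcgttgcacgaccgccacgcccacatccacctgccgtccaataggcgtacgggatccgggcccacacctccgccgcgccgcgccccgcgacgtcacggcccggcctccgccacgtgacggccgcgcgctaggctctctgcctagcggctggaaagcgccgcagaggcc
The Slc25a3 promoter held 1 match, to the YY1 motif on the opposite strand at position 42 after the start, and that of Slc25a36 held 1, to the CREB motif at position -161. Those of Slc25a4 and Slc25a33 held 0 matches. Promoters were found for 36 of the 47 members, 46 promoters in all. Of these, 1 held the YY1 motif and 2 the CREB motif (Slc25a25 and Slc25a36), beside 1.40% and 1.79% of 32851 promoters of all genes. The ETS motif was found in 1, that of Slc25a20, beside 3.89% of all promoters, and the NRF1 and oestrogen-related receptor motifs in 0, beside 1.75% and 0.423%. A match describes these letters only. The median GC content was 59.3% for the members' promoters and 52.7% for all.

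The carriers that serve ATP synthesis made up most of the family's RNA. Slc25a4, the ADP/ATP carrier of heart and muscle, and Slc25a3, the phosphate carrier, together held 79.1% to 83.3% of the family's summed TPM in the control libraries and 83.6%, 84.8% and 72.6% in radiotherapy replicates 1, 2 and 3. Slc25a3 was at 856, 940 and 708 TPM in control replicates 1, 2 and 3 and at 360, 287 and 473 TPM in the radiotherapy replicates. Every radiotherapy library lay below every control library, and replicate 3 was the highest of its group. The group means were 835 ± 118 and 373 ± 94.0 TPM (SD, n = 3 per group), with a log2 difference of -1.18 (SE 0.28, limma's adjusted p = 0.258), which is -0.82 relative to the median of all tested features. A lower difference than that of Slc25a3 was found for 5.15% of all tested features. Without radiotherapy replicate 3 its log2 difference was -1.36 and the adjusted p by limma 0.0138. In that fit 27.6% of all tested features passed as lower, and the value was -0.80 relative to their median.

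Slc25a4 was at 1709, 1303 and 1985 TPM in the control replicates against 1824, 1748 and 832 TPM in the radiotherapy replicates. Replicates 1 and 2 lay inside the control range and replicate 3 below it. Its log2 difference was -0.25 (SE 0.36, adjusted p = 0.739 by limma), 0.12 without replicate 3 and 0.18 with the libraries scaled by median of ratios. Slc25a5, the ADP/ATP carrier of most other and of dividing cells, was at 36.15, 39.54 and 42.84 TPM in the controls against 27.67, 23.20 and 64.34 TPM in radiotherapy-group replicates 1, 2 and 3. Replicates 1 and 2 lay below the control range and replicate 3 above it, the reverse of the order seen for Slc25a4. Its log2 difference of -0.18 became -0.62 without replicate 3 (limma's adjusted p = 0.0497) and 0.23 with median-of-ratios scaling. The value without replicate 3 was only -0.05 relative to the median of all tested features in that fit. Slc25a31, the testis ADP/ATP carrier, was listed at 0 in all 6 libraries. The table also lists a pseudogene of Slc25a5, and reads shared by such near-identical sequences could be split between them, so these levels are uncertain to that extent.

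Multiplying a library by a factor leaves the ratio of 2 genes in it as it was, whereas quantile normalisation does not. The log2 ratio of Slc25a4 to Slc25a5 was 5.56, 5.04 and 5.53 in the control replicates and 6.04, 6.24 and 3.69 in the radiotherapy replicates, so 2 of them lay above and 1 below every control library. That of Slc25a4 to Slc25a3, a pair chosen after its values were seen, was 1.00, 0.47 and 1.49 in control and 2.34, 2.61 and 0.81 in radiotherapy replicates 1, 2 and 3. Here too replicates 1 and 2 lay above all control libraries, while replicate 3 lay among them (two-sided exact permutation p = 0.3). With 3 libraries against 3 such a test cannot go below 0.1.

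**Figure D2:**
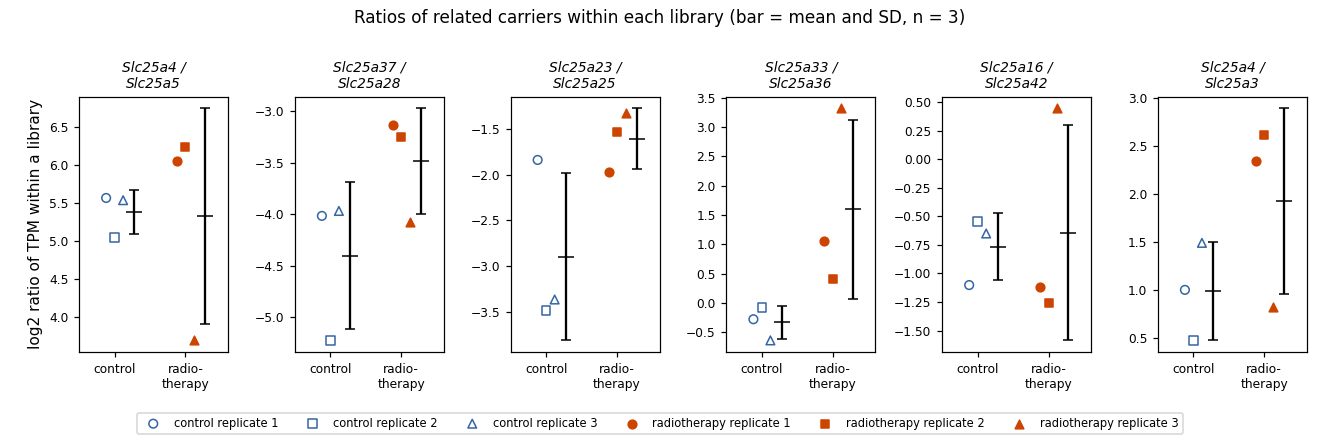
Log2 ratio of the TPM of 2 carriers within each library, for the 5 planned pairs in which both had a mean of at least 1 TPM and for Slc25a4 over Slc25a3, added after the values were seen. Symbols are libraries as in the plot of levels, and black bars give the mean and SD (n = 3). The ratio of Slc25a33 to Slc25a36 is the one in which all radiotherapy libraries lie above all control libraries.

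The calcium-regulated ATP-Mg/phosphate carriers exchange adenine nucleotides for phosphate and so set the nucleotide content of the matrix. Slc25a25, the most abundant of them, was at 21.70, 46.38 and 44.19 TPM in the controls against 37.81, 21.34 and 11.87 TPM after radiotherapy. The groups overlapped, with the lowest value in radiotherapy replicate 3, and the log2 difference of -0.71 became -0.31 without it and -1.11 without replicate 1. Slc25a23 was at 6.07, 4.14 and 4.28 TPM in the controls against 9.65, 7.40 and 4.76 TPM after radiotherapy, above every control library in replicates 1 and 2 only. Its log2 difference of 0.48 (SE 0.31, limma's adjusted p = 0.468) was 0.83 relative to all tested features, and 93.9% of features had a lower one. It was 0.27 without radiotherapy replicate 1 and 0.71 without replicate 3. The log2 ratio of Slc25a23 to Slc25a25 was -1.84, -3.49 and -3.37 in control and -1.97, -1.53 and -1.32 in radiotherapy muscle (exact permutation p = 0.2, adjusted p = 0.5 over the 5 planned pairs). Control replicate 1 lay above radiotherapy replicate 1 and below the other two, and the other control libraries lay below all of them. Slc25a24 was at 0.74 to 1.58 TPM in the controls against 0.62, 0.59 and 3.48 TPM in radiotherapy-group replicates 1, 2 and 3, and Slc25a41 was below 1 TPM in every library.

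Carriers of the malate-aspartate shuttle were the next most abundant and overlapped between the groups. Slc25a11, which exchanges oxoglutarate for malate, was at 149, 118 and 132 TPM in the controls against 121, 115 and 60.35 TPM after radiotherapy. Replicate 3 was the lowest, and the log2 difference was -0.48 (SE 0.34, limma's adjusted p = 0.502) and, without that replicate, -0.16. Slc25a12, the aspartate/glutamate carrier of excitable tissue, was at 131, 90.06 and 82.37 TPM in the controls against 72.14, 65.36 and 102.74 TPM after radiotherapy. Replicates 1 and 2 lay below the control range and replicate 3 inside it. Its liver-type counterpart Slc25a13 was at no more than 0.26 TPM in any library, which left the planned ratio of the pair unused. The citrate carrier Slc25a1 was at 2.03 to 7.91 TPM in the controls against 3.15 to 6.17 TPM after radiotherapy, and the dicarboxylate carrier Slc25a10 at 1.38 to 3.69 and 1.69 to 2.94 TPM. The oxoadipate carrier Slc25a21 was at most at 0.04 TPM. Of the 4 tested carriers of this class, 0 lay apart between the groups. So few genes cannot be set against the 19.3% of all tested features that lay apart as lower. The class median log2 difference was -0.11, beside -0.36 for all tested features, and became -0.03 without radiotherapy replicate 3, beside -0.57.

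The amino acid carriers had a class median log2 difference of -0.69 over 5 tested members, beside -0.36 for all tested features. Without radiotherapy replicate 3 these medians were near each other, at -0.65 and -0.57. Below every control library lay 2 of the 5, too few to set against the 19.3% of all tested features. Slc25a44, which imports branched-chain amino acids, was at 11.27, 11.89 and 6.53 TPM in the controls against 4.19, 3.48 and 5.90 TPM after radiotherapy. The gap between the lowest control and the highest radiotherapy library was small. Its log2 difference was -0.96 (SE 0.32, limma's adjusted p = 0.306), and -1.14 with an adjusted p of 0.0367 without radiotherapy replicate 3. Relative to the median of all tested features in that fit, the latter was -0.57. Slc25a22, a glutamate carrier, was at 7.02, 3.48 and 4.88 TPM in the controls against 2.66, 2.95 and 2.47 TPM after radiotherapy, which gave a log2 difference of -0.69 (SE 0.28, limma's adjusted p = 0.339). These groups stood apart as deposited and overlapped under each of the 3 other scalings. The glycine carrier Slc25a38, which serves haem synthesis, was at 15.87, 21.71 and 12.25 TPM in the controls against 6.07, 4.41 and 21.63 TPM after radiotherapy. Replicates 1 and 2 lay well below the control range and replicate 3 at its top. Without replicate 3 the log2 difference of Slc25a38, -0.85, became -1.47, with an adjusted p by limma of 0.0211. That value was -0.91 relative to the median of all tested features in the same fit. Slc25a29, a carrier of basic amino acids, was at 2.77 to 5.52 TPM in the controls against 1.26 to 3.88 TPM after radiotherapy, and the ornithine carrier Slc25a15 at 0.63 to 1.35 and 0.91 to 1.16 TPM. The second glutamate carrier Slc25a18 and the second ornithine carrier Slc25a2 stayed below 1 TPM throughout.

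The acylcarnitine carrier Slc25a20, which exchanges acylcarnitine for free carnitine, was at 17.80, 18.80 and 20.92 TPM in the controls against 10.09, 12.29 and 14.73 TPM after radiotherapy. All radiotherapy libraries lay below all control libraries. The log2 difference was -0.61 (SE 0.26, limma's adjusted p = 0.345), which is -0.25 relative to the median of all tested features. Without radiotherapy replicate 3 it was -0.73 with an adjusted p by limma of 0.0353, and -0.16 relative to that median in the same fit. The groups overlapped with median-of-ratios scaling and with quantile normalisation.

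Of 8 tested cofactor carriers, 3 lay below every control library, beside 19.3% of all tested features. Of these 3, Slc25a51 stayed apart under each of the 3 other scalings, Slc25a16 under 1 of them and Slc25a42 under 0. Slc25a51, the NAD carrier, was at 25.49, 23.18 and 19.18 TPM in the controls against 8.79, 7.40 and 15.71 TPM after radiotherapy. Each radiotherapy library lay below each control library, and replicate 3 was the nearest to them. The means were 22.6 ± 3.19 and 10.6 ± 4.45 TPM (SD, n = 3 per group), with a log2 difference of -1.08 (SE 0.33, limma's adjusted p = 0.299). Without replicate 3 it was -1.37 with an adjusted p by limma of 0.0135, and -0.80 relative to the median of all tested features in that fit. Slc25a16 and Slc25a42 are both linked to coenzyme A. Slc25a16 was at 4.09, 3.74 and 4.70 TPM in the controls against 2.50, 1.70 and 2.68 TPM after radiotherapy, with replicate 3 the highest of its group and a log2 difference of -0.66 (SE 0.25, limma's adjusted p = 0.332). Slc25a42 was at 8.78, 5.45 and 7.38 TPM in the controls against 5.42, 4.06 and 1.97 TPM after radiotherapy, with replicate 3 the lowest, and the highest radiotherapy library lay barely below the lowest control library. Its log2 difference was -0.82 (SE 0.35, limma's adjusted p = 0.348), and -0.50 without radiotherapy replicate 3. Their log2 ratio was -1.10, -0.54 and -0.65 in control and -1.12, -1.26 and 0.44 in radiotherapy muscle, with replicates 1 and 2 below and replicate 3 above every control library. Slc25a39, a glutathione carrier, was at 27.37, 36.94 and 21.08 TPM in the controls against 21.02, 17.28 and 27.15 TPM after radiotherapy. The groups overlapped. Slc25a40, the second glutathione carrier, was at 0.24 to 1.27 TPM. Slc25a26, which imports S-adenosylmethionine, was at 5.88 to 7.29 TPM in the controls against 5.10 to 7.35 TPM after radiotherapy. The peroxisomal carrier Slc25a17 was at 3.17 to 5.38 and 2.61 to 4.65 TPM and Slc25a32, linked to folate and FAD, at 1.23 to 1.92 and 0.75 to 1.48 TPM.

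The 2 pyrimidine nucleotide carriers, close relatives that supply the matrix with precursors of mitochondrial DNA and RNA, were ordered differently in the libraries. Slc25a36 was at 11.85, 11.05 and 14.55 TPM in the controls against 4.59, 5.18 and 2.97 TPM after radiotherapy. All radiotherapy libraries lay far below all control libraries, with replicate 3 the lowest. The means were 12.5 ± 1.83 and 4.25 ± 1.14 TPM (SD, n = 3 per group), and the log2 difference of -1.38 (SE 0.27, limma's adjusted p = 0.238) was -1.02 relative to all tested features, of which 3.02% had a lower one. Without radiotherapy replicate 3 it was -1.19, with an adjusted p by limma of 0.0156, and -0.62 relative to the median of all tested features in that fit. There Slc25a3, Slc25a28, Slc25a34, Slc25a38 and Slc25a51 had lower values. Slc25a33 was at 9.76, 10.44 and 9.33 TPM in the controls against 9.56, 6.89 and 29.65 TPM after radiotherapy, so replicate 3 lay far above the control range while replicates 1 and 2 lay in or below it. Without replicate 3 its log2 difference went from 0.34 to -0.25. The log2 ratio of Slc25a33 to Slc25a36 was -0.28, -0.08 and -0.64 in control and 1.06, 0.41 and 3.32 in radiotherapy muscle. The groups did not overlap, which gave the smallest p that the exact permutation test allows here, 0.1 (adjusted p = 0.5 over the 5 planned pairs).

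Iron reaches the matrix through the mitoferrins. Slc25a28 (mitoferrin-2), found in most tissues, was at 61.28, 79.64 and 43.16 TPM in the controls against 24.15, 19.05 and 62.95 TPM after radiotherapy. Replicates 1 and 2 lay below the control range and replicate 3 inside it. The log2 difference was -0.93 (SE 0.49, limma's adjusted p = 0.403), and -1.43 with an adjusted p of 0.0233 without replicate 3. Relative to the median of all tested features in that fit, the latter was -0.86. Slc25a37 (mitoferrin-1), the form of red cell precursors, was at 3.79, 2.13 and 2.76 TPM in the controls against 2.75, 2.01 and 3.74 TPM after radiotherapy. The groups overlapped, and the log2 ratio of Slc25a37 to Slc25a28 was -4.02, -5.22 and -3.97 in control and -3.13, -3.24 and -4.07 in radiotherapy muscle (exact permutation p = 0.3). The 5 erythroid markers, which bear on the mitoferrins and on Slc25a38, summed to 312 to 1395 TPM in the controls against 847 to 1307 TPM after radiotherapy, ranges that overlapped. Of the 5, Hba-a1 (a haemoglobin chain) and Alas2 (the red cell enzyme that starts haem synthesis) lay above every control library in all radiotherapy libraries. Hba-a2, the near-identical copy of Hba-a1, overlapped, as did Hbb-bs and Hbb-bt. Hba-a2 was at 121 to 508 TPM in the controls against 310, 282 and 97.25 TPM in radiotherapy replicates 1, 2 and 3. The part of the erythroid markers in these values was not tested.

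The carriers with no settled substrate included 2 of the lower-lying members. Slc25a46, which sits in the outer membrane and is tied to the shape and fusion of mitochondria, was at 11.55, 8.13 and 10.60 TPM in the controls against 3.76, 4.34 and 6.80 TPM after radiotherapy. The groups did not overlap, and the log2 difference was -0.92 (SE 0.29, limma's adjusted p = 0.302). Without radiotherapy replicate 3 it was -1.12 with an adjusted p by limma of 0.0205, and -0.56 relative to the median of all tested features in that fit. Slc25a34 was at 4.04, 4.69 and 11.21 TPM in the controls against 1.28, 2.15 and 3.24 TPM after radiotherapy, which gave a log2 difference of -1.17 (SE 0.42, limma's adjusted p = 0.323). Control replicate 3 held by far the highest value, and without it the log2 difference was -0.78. Its relative Slc25a35 was at 0.92 to 1.32 TPM in the controls against 2.13, 1.34 and 0.97 TPM after radiotherapy, above the control range in replicates 1 and 2 only. Slc25a45 was at 0.49 to 1.81 and 0.65 to 1.18 TPM. Slc25a47, Slc25a48, Slc25a53, Slc25a43 and Slc25a54 had means below 1 TPM. Among them Slc25a53 was at 0.98, 0.59 and 0.60 TPM in the controls against 0.18, 0.14 and 0.23 TPM after radiotherapy, apart between the groups but below the filter.

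Uncoupling-protein-like carriers were scarce. Slc25a27 was at 2.87, 1.54 and 2.95 TPM in the controls against 1.86, 1.96 and 2.53 TPM after radiotherapy, where the groups overlapped. Slc25a30, at a mean of 0.965 TPM, lay just outside the filter, with 1.00 to 1.30 TPM in the controls against 0.70 to 0.92 TPM after radiotherapy, while Slc25a45 and Slc25a15, both at a mean of 1.05 TPM, lay just inside. Slc25a14 was at 1.06 to 1.15 TPM in the controls against 0.47, 0.38 and 1.30 TPM in radiotherapy-group replicates 1, 2 and 3. In all, 14 members were below the filter, 8 of them at a mean from 0.1 to under 1 TPM and 6 below that. Of the 33 tested, 3 had a mean of at least 100 TPM, 10 a mean from 10 to under 100 TPM and 20 a mean below 10 TPM.

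**Figure D3:**
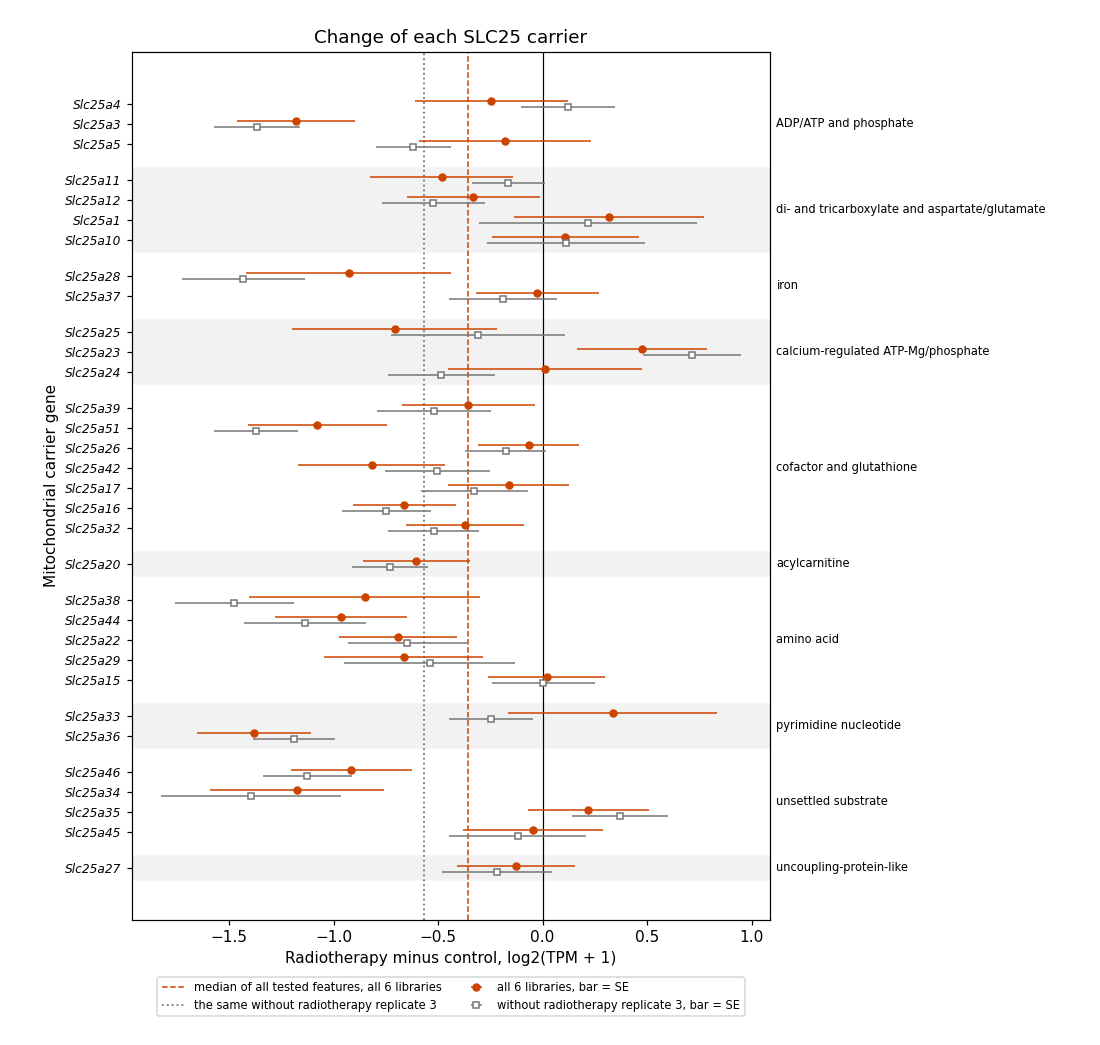
Log2 difference, radiotherapy minus control on the log2(TPM + 1) scale, of 32 of the 33 tested carriers with its standard error, with all 6 libraries (filled circles) and without radiotherapy replicate 3 (open squares). The dashed and dotted lines mark the median of all tested features in each fit, -0.36 and -0.57. Slc25a36, Slc25a3, Slc25a34 and Slc25a51 lie farthest to the left with all 6 libraries.

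Set against the control mean library by library, some carriers had 1 sign in all 3 radiotherapy libraries and others did not. Slc25a36 deviated by -1.26, -1.12 and -1.76 on the log2(TPM + 1) scale in replicates 1, 2 and 3, and Slc25a3 by -1.20, -1.53 and -0.81. Opposite signs were found for Slc25a5 (-0.50, -0.74 and 0.69), Slc25a38 (-1.28, -1.67 and 0.40) and Slc25a24 (-0.47, -0.50 and 1.00), with replicate 3 on the positive side. Slc25a4 (0.15, 0.09 and -0.98) split the other way. The members' median was -0.33, -0.59 and -0.07 in replicates 1, 2 and 3, and that of all tested features -0.53, -0.61 and -0.01.

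**Figure D4:**
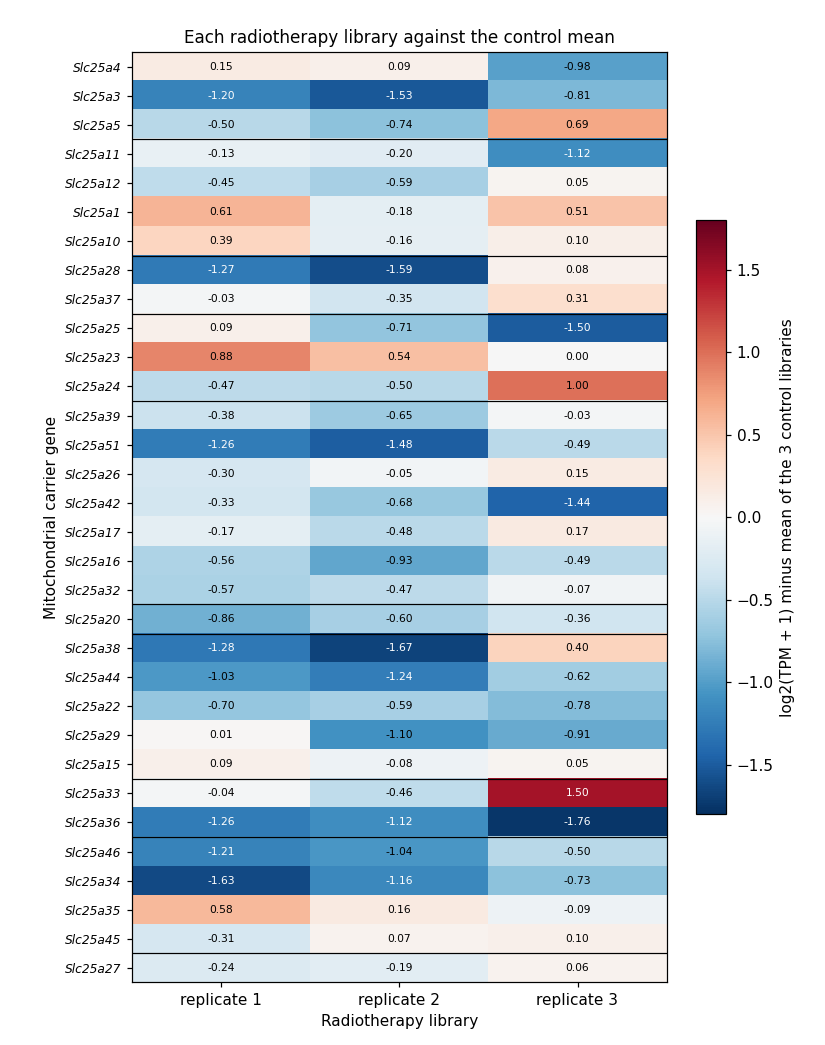
Difference of each radiotherapy library from the mean of the 3 control libraries, in log2(TPM + 1), for 32 of the 33 tested carriers, ordered as in the plot of levels, with lines between substrate classes. Blue is below and red above the control mean. Slc25a36 and Slc25a3 are blue in all 3 columns, and Slc25a33, Slc25a24 and Slc25a5 are red in replicate 3 only.

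Of 80 tested genes that work with the carriers or belong to the family under other symbols, 0 passed over all features. Among all tested features 0.0168% passed as lower and 0.0419% as higher. The smallest adjusted p of the 80 by limma was 0.238. Family members under other symbols overlapped between the groups, with Mtch1 and Mtch2, carrier-like proteins of the outer membrane, at 68.66 to 167 and 106 to 155 TPM in the controls against 43.87 to 95.12 and 78.81 to 133 TPM after radiotherapy. Of the uncoupling proteins (these and Timm8b, Timm29, Mpc2, Got2, Hscb and Nfu1 were named after their values were seen), Ucp3 was at 17.56, 8.39 and 39.01 TPM in the controls against 19.33, 64.61 and 23.15 TPM after radiotherapy, and Ucp1, the brown fat form, was at no more than 0.19 TPM. Of 16 genes of carrier import, which guide carriers through the outer membrane and insert them into the inner one, 3 (Tomm70a, Timm8b and Timm29) lay below every control library in all radiotherapy libraries, a share of 18.75% beside 19.3% of all tested features. Tomm70a, the import receptor for carriers, was at 13.46, 10.80 and 11.23 TPM in the controls against 4.37, 4.07 and 10.24 TPM after radiotherapy. The receptor Tomm20, at 175 to 246 TPM in control, was at 91.59, 66.47 and 178 TPM, so only replicate 3 reached the control range.

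Among 16 tested transporters of the inner membrane outside the family, 3 (Mpc1, Mpc2 and Abcb10) lay apart as lower, again 18.75% beside 19.3% of all tested features. Mpc1, a subunit of the pyruvate carrier, was at 538, 495 and 518 TPM in the controls against 290, 307 and 330 TPM after radiotherapy, which gave a log2 difference of -0.74 (SE 0.23, limma's adjusted p = 0.298). Abcb10, a transporter tied to haem synthesis, was at 2.75 to 4.94 and 2.26 to 2.63 TPM. Of the 3 porins of the outer membrane, too few to set against that share, 2 lay apart, with Vdac3 at 290 to 305 TPM in the controls against 206 to 212 TPM after radiotherapy and Vdac1 at 307 to 440 and 228 to 273 TPM. Cpt1b, which makes acylcarnitine at the outer membrane of muscle mitochondria, was at 94.62, 96.91 and 91.93 TPM in the controls against 46.29, 40.63 and 38.59 TPM after radiotherapy. All 3 radiotherapy libraries lay well below all control libraries, with a log2 difference of -1.16 (SE 0.24, limma's adjusted p = 0.238). Crat, carnitine acetyltransferase, was at 176 to 258 and 131 to 181 TPM and overlapped. Of the 4 tested enzymes of the carnitine shuttle, Cpt1b alone lay apart, too few genes to set against that share. Their median log2 difference was -0.28, beside -0.36 for all tested features.

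ATP synthase, which the phosphate and ADP/ATP carriers supply, had a median log2 difference of -0.12 over 16 subunit and inhibitor genes, against -0.36 for all tested features, and 5 of the 16 (31.25%) lay below every control library, beside 19.3% of all tested features. These included Atp5l, at 1313 to 1679 TPM in the controls against 935 to 1006 TPM after radiotherapy, and Atp5a1, at 681 to 870 and 405 to 572 TPM. Of the malate-aspartate shuttle enzymes, 2 of 4 (Mdh1 and Got2) lay apart as lower, a number too small to set against the 19.3% of all tested features. Mdh1, the cytosolic malate dehydrogenase, was at 166 to 192 TPM in the controls against 92.53 to 127 TPM after radiotherapy, and Got1, the cytosolic aspartate aminotransferase, at 124 to 203 and 60.01 to 136 TPM, where the groups overlapped. Of 15 genes of iron-sulphur cluster assembly, 4 (Isca1, Nfs1, Hscb and Nfu1) lay apart as lower, which is 26.7% beside that same 19.3%, with Isca1 at 89.50 to 114 and 63.02 to 69.71 TPM and Nfs1, the cysteine desulphurase, at 32.34 to 47.05 and 17.59 to 31.27 TPM. In the glycerol phosphate shuttle, the other route for cytosolic reducing equivalents, Gpd1 was at 73.56, 54.52 and 69.96 TPM in the controls against 167, 132 and 22.36 TPM after radiotherapy. Replicates 1 and 2 lay above and replicate 3 below every control library, and its log2 difference of 0.28 became 1.17 without replicate 3 (limma's adjusted p = 0.019). Gpd2, its mitochondrial partner, was at 15.34 to 24.23 and 8.73 to 23.23 TPM.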

How the data were processed

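The deposited values are TPM, scaled by the authors within each library and rounded to 2 decimals. The submitters' processing notes name HISAT2, StringTie, RSEM and the build mm9, with no version or order. The annotation's release was not given in the sources used here. With no read counts at hand, sequencing depth is unknown, and precision rests on the spread between 3 libraries a group. Groups were taken from the sample titles. Features averaging 1 TPM or more were fitted as log2(TPM + 1) with limma 3.58.1 in R 4.3.3 (empirical Bayes with a trend, two-sided, no covariates), with p-values adjusted over all 11938 features. The fit was run on simulated data with known changes. Recovery was required only at a spread smaller than that of the real data, which leaves power at the real spread unstated. Members, substrate classes, partner lists and pairs were chosen with earlier results of these data known. Values in every library are given for the 2 most abundant tested members of each class, members whose groups did not overlap and members of used pairs, and for the 2 genes with the smallest p of each partner list, where a range can stand in. The values of 1 tested member are not reported here, and it stays in the counts and medians. Ratios were tested by two-sided exact permutation. Figures were drawn with matplotlib 3.10.9. Alternatives were other pseudocounts, filters, scalings and variance models, a block for the replicate number, and omission of single libraries.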

Additional observations from a re-analysis of the deposited data

How the results depend on the processing

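With 3 libraries a group and no counts, single-gene calls are limited by the spread between libraries, and the number of calls turned on radiotherapy replicate 3. Leaving out 1 library at a time gave 0 to 10 of 33 members lower by limma at an adjusted p of 0.05. Of all 11938 tested features, 0 to 3298 were lower, the latter being 27.6%. Below every control library lay 10 to 17 members (20.7% to 58.8% of all tested features) and above 0 to 3 (2.33% to 6.17%). The 10 lower calls and the 17 came without radiotherapy replicate 3, and the 3 above (Slc25a1, Slc25a10 and Slc25a23) without control replicate 1. At an adjusted p of 0.05, 0 members passed in either direction in each of the other settings. The equal medians of members and all tested features, -0.36, held at the filter of 1 TPM. With a filter at a mean of 5 TPM they were -0.61 and -0.42, and with no filter on low values -0.21 and -0.05. Scaling moved the median log2 difference of all tested features from -0.36 to -0.02 (median of ratios), -0.22 (without mitochondrial and the 20 most abundant genes) and -0.02 (quantiles), and the share of them below 0 from 78.5% to 51.7%, 68.0% and 51.4%. The members' median became 0.055 (median of ratios), -0.16 (without mitochondrial and the 20 most abundant genes) and -0.11 (quantiles). In that order 6, 8 and 5 members lay below every control library, beside 9.95%, 16.5% and 11% of all tested features. With quantiles 3 members lay above (Slc25a15, Slc25a33 and Slc25a37) beside 7.85%.

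Of the 33 tested members, 26 had a log2 difference below 0 as deposited. This number was 16 with median of ratios, 17 with quantiles and 21 without mitochondrial and the 20 most abundant genes. Single values were followed only for the 22 members and 18 partner genes chosen by the rule above. Among these, log2 differences that turned to above 0 were, with median of ratios and with quantiles, those of Slc25a12 (0.092 and 0.046), Slc25a27 (0.17 and 0.18), Slc25a37 (0.29 and 0.29), Slc25a39 (0.055 and 0.052), Slc25a5 (0.23 and 0.21) and Gpd2 (0.11 and 0.12), and with median of ratios only those of Slc25a4 (0.18) and Mtch2 (0.017). Without mitochondrial and the 20 most abundant genes they were those of Slc25a27 (0.017), Slc25a37 (0.14) and Slc25a5 (0.018). Leaving out single libraries, the log2 difference ran from -0.25 to 0.73 for Slc25a33, -0.19 to 0.14 for Slc25a37, -0.44 to 0.12 for Slc25a4, -0.62 to 0.10 for Slc25a5, -0.25 to 1.17 for Gpd1 and -0.55 to 0.11 for Gpd2, and the difference in log2 ratio from -0.51 to 0.76 for Slc25a4 to Slc25a5 and from -0.42 to 0.43 for Slc25a16 to Slc25a42. The cause was not tested. With the replicate block, the log2 difference of Slc25a36 stayed at -1.38 and its adjusted p by limma was 0.6, and 5 members rather than 9 were lower at an unadjusted p of 0.05, beside 6.9% rather than 13.3% of all tested features. Deviations of same-numbered libraries correlated at -0.05, -0.11 and -0.20, so the numbers were not read as pairs.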
